A study of Mus musculus with 4 samples.

Results

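The expression of 32 genes of peroxisome biogenesis and peroxisomal oxidation was compared between *Rap1*-/- and wild-type mouse liver. The list was made of 13 peroxins and 19 enzymes and transporters, taken by name. Each gene was read from its brightest probe on an Agilent array of 55681 probes, which name 19752 genes. All 32 genes were well above background in both genotypes on all 4 arrays and were tested. RAP1, encoded by *Terf2ip*, is a subunit of the shelterin complex at telomeres that also binds elsewhere in the genome. The *Rap1*-/- mice were constitutive knockouts of the whole body. Floxed mice had been mated with an *EIIa-cre* line, the deletion was inherited by the progeny, and the *cre* allele was later bred out of the colony. Both genotypes were of the C57BL6/129SV (90%:10%) background and 30 weeks old by the sample labels. On 3 arrays, called replicates 1, 2 and 3, the *Rap1*-/- liver carried Cy5 and the wild-type liver Cy3. On a dye-swapped array the dyes were exchanged, and since its label bears the number 1, it was averaged with replicate 1 after its sign had been turned. This left n = 3 pairs, and the labels do not say whether each pair came from its own animals, so the p-values measure only the spread between these pairs.

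Peroxisomes are single-membrane organelles that take up their matrix enzymes fully folded. Peroxins build the membrane, carry cargo in on shuttling receptors, recycle those receptors through a ubiquitin ligase and an ATPase, and divide the organelle. In hepatocytes the organelle shortens very long-chain and branched fatty acids, completes the side chain of bile acids and removes the hydrogen peroxide that its oxidases release. Many of its enzymes are targets of PPARα, the nuclear receptor for fatty acids.

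Each ratio below is *Rap1*-/- over wild-type on the log2 scale, and a gene was called at a false discovery rate (FDR) under 0.15 by limma over all 27513 tested probes. Of the 2 probes for *Terf2ip*, A_52_P381806 was well above background in wild-type liver on 4 of 4 arrays and in *Rap1*-/- liver on 0 of 4. It was at least 3.34-fold lower in *Rap1*-/- liver (adjusted p = 0.00859). Its ratios were -1.74, -1.92 and -1.91 on replicates 1 to 3 and -1.68 on the dye swap. The probe was thus lower in both dye orientations, while the size of the bound is open to dye bias. The other probe, A_55_P2094079, was higher by 0.96 (adjusted p = 0.0329), and no source at hand places it inside or outside the deleted part, so it checks nothing. All 8 hepatocyte markers, among them *Alb* and *Hnf4a*, were above background on every array. Across probes, r between replicates 1, 2 and 3 was 0.643 to 0.847, whereas r between them and the turned dye swap was -0.288 to -0.243. The SD of the log2 ratios was 0.48 to 0.51 on the first 3 arrays and 0.24 on the dye swap, so the value on the dye swap is given for each gene that is described array by array.

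Promoter sequence was searched because RAP1 travels with proteins that bind the telomeric repeat and PPARα binds repeats of AGGTCA. RefSeq promoters on GRCm38.p6, each running from 250 bases before to 50 bases after the start, were searched for 27 of the 32 genes (33 promoters). TTAGGG, on either strand, was found in the promoters of 3 of these genes (11.1%) and of 12.0% of all genes. AGGTCA was found in 4 (14.8%), against 18.1% of all genes. Neither a tandem copy of TTAGGG nor a direct repeat of AGGTCA with 1 base between the copies was found in any of the 33 promoters, and both were rare among all 32851 promoters (0.0122% and 0.0396%). The stretches before the start that hold a single motif are given here on the strand of the gene, with the motif in capitals, for reference to the values of the genes below.
*Cat*, chr2:103485322-103485387, minus strand: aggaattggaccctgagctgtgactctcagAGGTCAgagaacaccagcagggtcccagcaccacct
*Pex11g*, chr8:3467786-3467851, minus strand: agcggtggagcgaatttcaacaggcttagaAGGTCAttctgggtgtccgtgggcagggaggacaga
*Scp2*, chr4:108118621-108118686, minus strand: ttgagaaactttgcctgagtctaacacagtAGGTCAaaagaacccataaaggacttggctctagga
*Pex26*, chr6:121183526-121183591, plus strand, motif on the reverse strand: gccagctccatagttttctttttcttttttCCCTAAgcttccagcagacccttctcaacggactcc
*Phyh*, chr2:4918773-4918838, plus strand, motif on the reverse strand: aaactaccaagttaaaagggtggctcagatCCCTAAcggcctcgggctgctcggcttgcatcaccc
*Pecr*, chr1:72284322-72284359, minus strand: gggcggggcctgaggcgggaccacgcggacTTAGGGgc
The AGGTCA of the fourth gene, *Phyh*, lies 36 bases past the start and is not printed.

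In *Rap1*-/- liver 10 of the 32 genes were higher (31.2%) and 3 were lower (9.38%), while 20.8% of all tested probes were higher and 13.7% were lower. The genes that rose were the import receptor *Pex5*, the division factor *Pex11a*, and 8 genes of oxidation, namely *Acox2*, *Acox3*, *Ehhadh*, *Hsd17b4*, *Acaa1a*, *Acaa1b*, *Decr2* and *Cat*. Those that fell were *Pex2*, *Phyh* and *Nudt7*. In either direction, 13 genes (40.6%) passed against 34.5% of all tested probes. The median log2 fold change was 0.01 over the 32 genes and 0.03 over all tested probes. Enzymes and transporters accounted for 10 of the 13 calls (8 higher and 2 lower of 19), and peroxins for 3 (2 higher and 1 lower of 13). A dye term was also fitted over the 4 arrays, where the dye swap is the only array of its orientation and is fitted exactly. The SE and p of that fit therefore hold no spread of the dye swap, only that of the 3 other arrays. That fit also takes the dye swap as independent of replicate 1. The count of 13 calls depended on the arrays used. It was 19 without the dye-swapped array (52.7% of all probes), 4 once a dye term was fitted over the 4 arrays (6.7%) and 0 when the dye swap counted as a separate replicate (0.302%), where 10 had an unadjusted p under 0.05. Without replicate 1, 2 or 3 it was 21, 0 and 6 (45.8%, 0.0254% and 9.94% of all probes), and 8 had an unadjusted p under 0.05 without replicate 2. Leaving out replicate 1 also left out the dye swap, which had been averaged with it. Of all 27513 tested probes, 5578 had an unadjusted p under 0.05 with the dye swap as a separate replicate and 3904 without replicate 2.

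**Figure D1:**
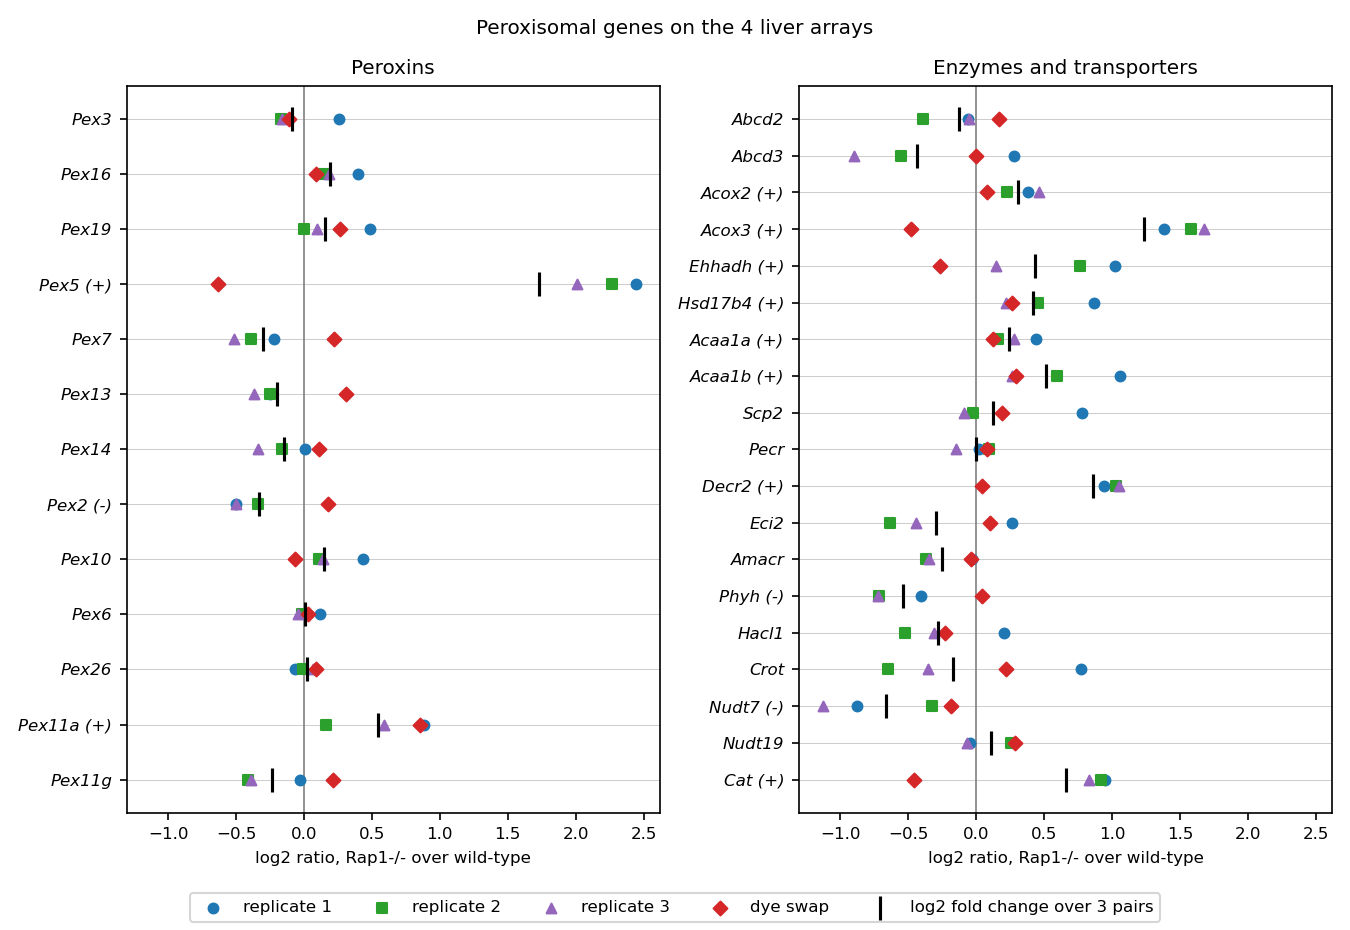
Log2 ratios, *Rap1*-/- over wild-type, of the 32 peroxisomal genes on the x axis, with 1 row for each gene, peroxins on the left and enzymes and transporters on the right. Each coloured point is 1 array and the black bar is the log2 fold change over 3 pairs. (+) and (-) mark genes higher and lower at an FDR under 0.15. *Pex5* runs from 2.01 to 2.44 on replicates 1 to 3 and lies at -0.64 on the dye swap, while the 4 points of *Pex11a* lie between 0.16 and 0.89.

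Among the peroxins, *Pex11a*, which elongates peroxisomes before they divide, was higher on all 4 arrays. Replicates 1, 2 and 3 gave log2 ratios of 0.89, 0.16 and 0.59, and the dye swap gave 0.86. Its normalised intensity was 17190, 10470, 13440 and 15430 in *Rap1*-/- liver and 9297, 9350, 8916 and 8524 in wild-type liver on the same arrays, so the genotypes did not overlap in either dye. Over the pairs this made a log2 fold change of 0.54 (SE 0.15, n = 3 pairs, adjusted p = 0.0721), and 0.70 with the dye term (adjusted p = 0.105). Replicate 2 was the low array of the set. The related division gene *Pex11g*, whose promoter window is printed above, had ratios of -0.03, -0.41, -0.39 and 0.22 and did not pass (adjusted p = 0.248).

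*Pex5*, the shuttling receptor that recognises the C-terminal import signal of most matrix enzymes, gave 2.44, 2.27 and 2.01 on replicates 1, 2 and 3, whereas the dye swap gave -0.64. Its intensity in *Rap1*-/- liver was 2448, 2418 and 1909 in Cy5 and 865 in Cy3. In wild-type liver it was 451, 502 and 473 in Cy3 and 1345 in Cy5. The liver that carried Cy5 was therefore the brighter of the pair on 4 of 4 arrays, whichever its genotype. The log2 fold change over pairs was 1.73 (SE 0.27, adjusted p = 0.0402), a 3.31-fold difference, and with the dye term it was 0.80 (SE 0.10, adjusted p = 0.0494). *Pex7*, the receptor for the N-terminal import signal, had ratios of -0.22, -0.39, -0.52 and 0.22 and did not pass (adjusted p = 0.151).

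*Pex2*, a subunit of the ubiquitin ligase that acts on import receptors, had ratios of -0.50, -0.34 and -0.50 and a ratio of 0.18 on the dye swap. The log2 fold change was -0.33 (SE 0.10, adjusted p = 0.0855), and -0.13 with the dye term (adjusted p = 0.442). Here the Cy3 channel was the brighter on all 4 arrays. *Pex16*, a membrane assembly factor, was positive on every array with 0.40, 0.15, 0.19 and 0.09, but did not pass (log2 fold change 0.19, SE 0.08, adjusted p = 0.164). The remaining 9 peroxins were the membrane assembly factors *Pex3* and *Pex19*, the receptor *Pex7*, the docking proteins *Pex13* and *Pex14*, the ligase subunit *Pex10*, the export ATPase *Pex6* with its anchor *Pex26*, and *Pex11g*. Their log2 fold changes lay between -0.30 and 0.16, with adjusted p from 0.151 to 0.973. A second and dimmer probe of *Pex13* passed at -0.35 (adjusted p = 0.138), with 0.29 on the dye swap. The dimmer probe of *Pex26* was negative on all 4 arrays but did not pass (log2 fold change -0.18, adjusted p = 0.177), while the brighter gave 0.02.

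Peroxisomal beta-oxidation runs through an oxidase, a bifunctional hydratase and dehydrogenase, and a thiolase. In *Rap1*-/- liver, genes of each step were higher. *Acaa1b*, a ketoacyl-CoA thiolase, gave log2 ratios of 1.06, 0.60 and 0.27 in the order of the replicates, with 0.29 for the dye swap. Its log2 fold change was 0.51 (SE 0.11, adjusted p = 0.0496). The close paralogue *Acaa1a*, on the same chromosome 9, had 0.44, 0.16, 0.28 and 0.13 and a log2 fold change of 0.24 (SE 0.08, adjusted p = 0.112). Both thiolase genes were thus higher on all 4 arrays. Signal shared between the copies cannot be told apart, since probe sequences were not used here. *Scp2*, which encodes a further thiolase and a sterol carrier protein, had 0.78, -0.03, -0.09 and 0.19 and did not pass (adjusted p = 0.554).

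*Hsd17b4*, the bifunctional enzyme that handles branched chains and bile acid intermediates, had ratios of 0.87, 0.46, 0.22 and, on the dye swap, 0.26. Its intensity ran from 18660 to 27840 in *Rap1*-/- liver and from 15230 to 17780 in wild-type liver, without overlap. This gave a log2 fold change of 0.41 (SE 0.10, adjusted p = 0.0598). *Ehhadh*, the bifunctional enzyme of straight chains, had 1.02, 0.76 and 0.15 but -0.26 on the dye swap. Its log2 fold change of 0.43 (SE 0.13, adjusted p = 0.0933) came to 0.19 with the dye term (adjusted p = 0.614). The pair thus differed in the sign of the dye-swapped array, and this difference was not tested.

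Of the oxidases, *Acox2*, which acts on bile acid intermediates, was positive on every array with 0.38, 0.23, 0.46 and 0.08. Its log2 fold change was 0.31 (SE 0.09, adjusted p = 0.0884). *Acox3*, which acts on branched chains, had 1.38, 1.58 and 1.67 with *Rap1*-/- liver in Cy5 and -0.48 with the dyes exchanged. Its log2 fold change was 1.24 (SE 0.25, adjusted p = 0.0459), and 0.53 with the dye term (adjusted p = 0.0715). The liver in Cy5 was again the brighter on 4 of 4 arrays. The 2 probes of *Acox3* differed. The dimmer probe, A_52_P745, had ratios of 0.33, 0.12, 0.14 and 0.06 and did not pass (log2 fold change 0.15, adjusted p = 0.244).

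*Decr2*, the reductase that clears double bonds of polyunsaturated chains, had ratios of 0.94, 1.03 and 1.05 and only 0.04 on the dye swap. In *Rap1*-/- liver its intensity was 7572, 8732 and 8518 in Cy5 and 6547 in Cy3, and in wild-type liver 3943, 4279 and 4115 in Cy3 and 6371 in Cy5. The genotypes did not overlap, but the dye-swapped array held them close together. Its log2 fold change of 0.86 (SE 0.14, adjusted p = 0.0402) came to 0.52 with the dye term (SE 0.07, adjusted p = 0.0561). *Amacr*, the racemase for branched chains, was negative on every array with -0.03, -0.37, -0.34 and -0.04 and did not pass (log2 fold change -0.25, SE 0.10, adjusted p = 0.157). The reductase *Pecr* (log2 fold change 0.00) and the isomerase *Eci2* (-0.30) did not pass either.

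*Cat*, the catalase that breaks down hydrogen peroxide, had ratios of 0.95, 0.92 and 0.83 and -0.45 on the dye swap. Its intensity in *Rap1*-/- liver was nearly level over the arrays (6739, 7134, 6926 and 6947), while wild-type liver gave 3496, 3775 and 3903 in Cy3 and 9519 in Cy5. The log2 fold change was 0.66 (SE 0.15, adjusted p = 0.0531), and 0.22 with the dye term (adjusted p = 0.226). The other *Cat* probe, A_51_P191611, had 2.58, 2.43, 2.31 and -0.75 and a log2 fold change of 1.88 (SE 0.30, adjusted p = 0.0402). Both probes were opposite in sign on the dye swap, and they differed in size by more than either SE. The AGGTCA window before the start of *Cat* is the first of those printed above.

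**Figure D2:**
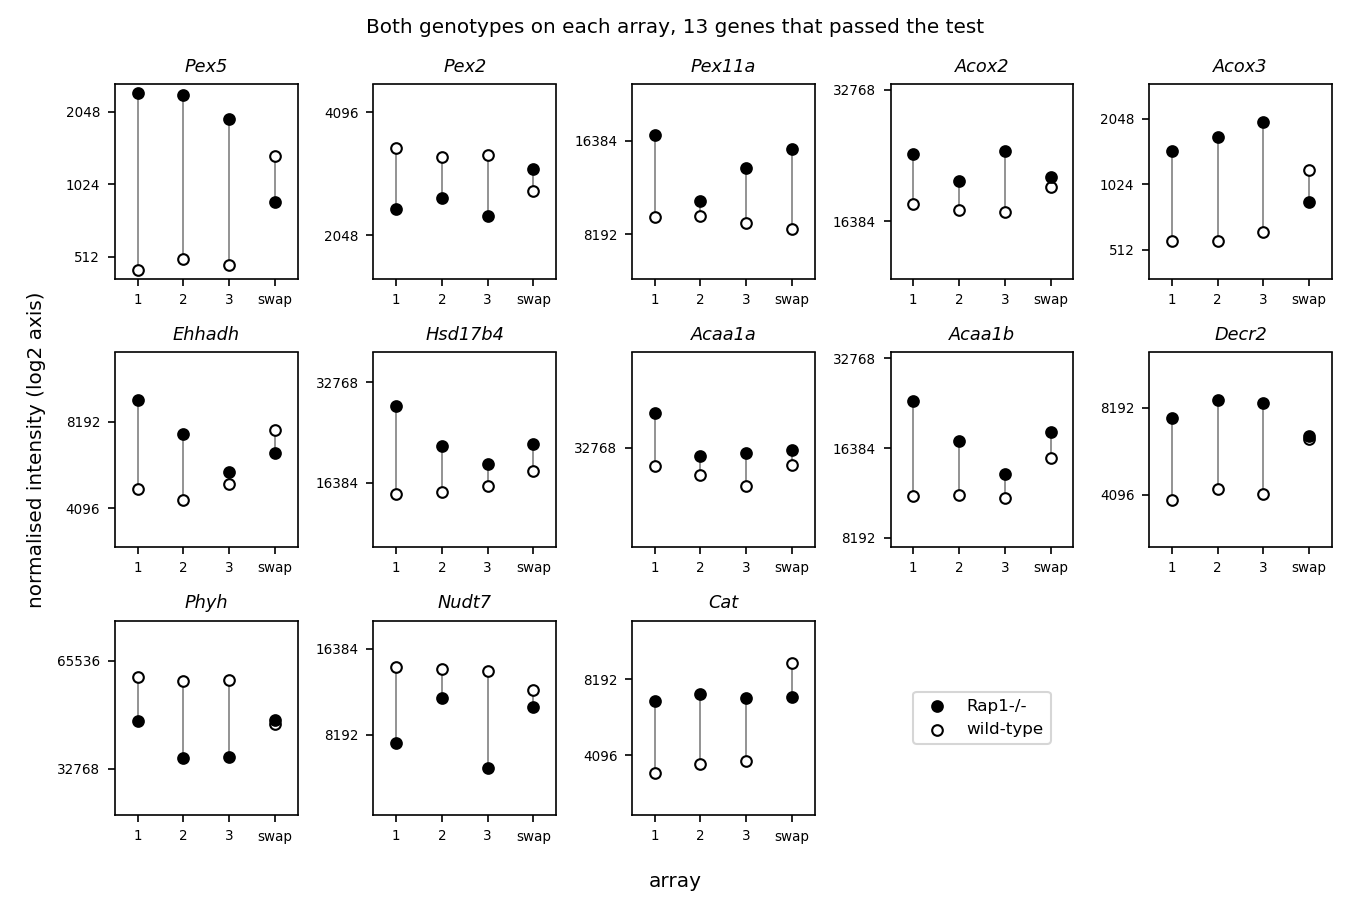
Normalised intensity of both genotypes (y axis, log2 scale, a separate range in each panel) on replicates 1 to 3 and the dye swap (x axis) for the 13 genes called. Filled points are *Rap1*-/- liver, open points wild-type liver, and a line joins the 2 channels of 1 array. The order of the genotypes turns over on the dye swap for *Pex5*, *Pex2*, *Acox3*, *Ehhadh*, *Phyh* and *Cat* and holds for the other 7 genes.

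Alpha-oxidation removes a single carbon from phytanic acid. *Phyh*, its hydroxylase, had ratios of -0.41, -0.72 and -0.72 and 0.04 on the dye swap. Its intensity was 44530, 34990 and 35230 in *Rap1*-/- liver against 59050, 57530 and 58040 in wild-type liver on replicates 1, 2 and 3, and 44800 against 43570 on the dye swap. The log2 fold change was -0.54 (SE 0.13, adjusted p = 0.0617), and -0.29 with the dye term (adjusted p = 0.219). *Hacl1*, the lyase of the same route, did not pass (-0.28, adjusted p = 0.167).

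*Nudt7*, a diphosphatase that degrades coenzyme A inside peroxisomes, was negative on all 4 arrays, with ratios of -0.88, -0.33, -1.13 and -0.19. Its intensity ran from 6250 to 11030 in *Rap1*-/- liver and from 11710 to 14100 in wild-type liver, without overlap. Over the pairs its log2 fold change was -0.66 (SE 0.17, adjusted p = 0.062). A second probe gave -0.53 (adjusted p = 0.0952), with -0.63 on the dye swap. *Nudt7* was the only gene of the 32 that passed lower with the same sign on all 4 arrays. *Nudt19*, another coenzyme A diphosphatase, had a log2 fold change of 0.11 (adjusted p = 0.481). The 8 enzymes and transporters without a call and without a single sign were the acyl-CoA transporters *Abcd2* and *Abcd3*, the carnitine octanoyltransferase *Crot*, *Scp2*, *Pecr*, *Eci2*, *Hacl1* and *Nudt19*, with log2 fold changes from -0.44 to 0.12.

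Across the list, 9 of the 32 genes had the same sign on all 4 arrays (28.1%), as did 21.5% of all tested probes. Of these, 7 had also passed the test, with *Pex11a*, *Acox2*, *Hsd17b4*, *Acaa1a*, *Acaa1b* and *Decr2* higher and *Nudt7* lower. Of all tested probes, 12.1% met both conditions. The other 6 calls (46.2% of 13) had the opposite sign on the dye swap, as did 63.8% of the 9488 probes called. They were *Pex5*, *Acox3*, *Ehhadh* and *Cat*, in which Cy5 was the brighter channel on every array, and *Pex2* and *Phyh*, in which Cy3 was. With the dye term over 4 arrays, *Pex5*, *Pex11a*, *Acox3* and *Decr2* passed, by p-values that hold no spread of the dye swap. At an FDR under 0.05 over the 3 pairs, 4 genes passed (9.07% of all probes), namely *Pex5*, *Acox3*, *Decr2* and *Acaa1b*.

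**Figure D3:**
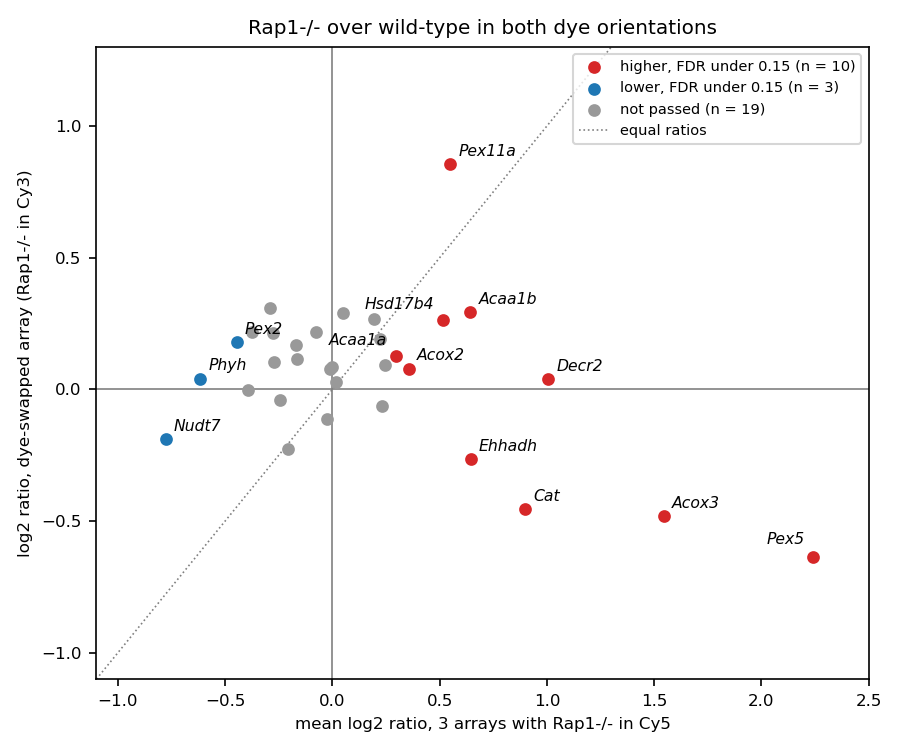
Log2 ratio on the dye-swapped array (y axis) against the mean log2 ratio of the 3 arrays with *Rap1*-/- liver in Cy5 (x axis), with 1 point for each of the 32 genes, coloured by the call over 3 pairs. The dotted line marks equal ratios. *Pex5*, *Acox3*, *Cat* and *Ehhadh* lie to the right and below 0, while *Pex11a* lies at 0.86 on the y axis.

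The replicates differed in the behaviour of the list. The median log2 ratio of the 32 genes came to 0.27, -0.01 and -0.06 in replicates 1 to 3 and to 0.09 in the dye swap, while the median of all tested probes was 0.03, 0.02, 0.03 and -0.01. On replicate 1 and on the dye swap, 22 of the 32 genes were above 0 (68.8%), and on replicates 2 and 3, 14 were (43.8%). Of all tested probes, 53%, 52.8% and 53% were above 0 on replicates 1 to 3 and 48% on the dye swap. In all, 8 of the 32 genes (25%) were above 0 on replicate 1 and below 0 on replicates 2 and 3, a pattern held by 6.76% of all tested probes. The pattern was chosen after the values had been seen, and no test was made of it. *Crot*, which moves shortened acyl chains onto carnitine, had ratios of 0.77, -0.65 and -0.35 and 0.22 on the dye swap. *Abcd3*, the transporter of branched and dicarboxylic chains, had 0.28, -0.56, -0.90 and 0.00. *Eci2* had 0.27, -0.63, -0.45 and 0.10. These genes did not pass over the 3 pairs, and their values on replicate 1 stood apart from those on the other 2 replicates. The others with this pattern were *Pex3*, *Pex14*, *Pex6*, *Scp2* and *Hacl1*. Without replicate 1 and the dye swap averaged with it, 9 of the 32 genes passed higher and 12 lower. Of all tested probes, 26.4% and 19.4% did so. Without the dye swap alone, 12 of the 32 genes passed higher and 7 lower, and 52.7% of all tested probes passed.

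Markers of other cells also differed between replicates. The 6 macrophage markers measured, all above background on every array, had a median log2 ratio of -0.45, 0.26 and 1.36 in replicates 1 to 3 and of -0.38 in the dye swap. Their summed intensity ran from 18910 to 73790 in *Rap1*-/- liver and from 27330 to 29700 in wild-type liver. Of the 6, 1 passed the test, *Lyz2*, which was higher but had -0.53 on the dye swap. The red cell markers *Hba-a1* and *Alas2* had a median of 0.98 on replicate 1, 0.56 on the dye swap, and -0.16 and 0.01 on replicates 2 and 3, with summed intensities from 34480 to 70570 and from 36910 to 46490. None of the 3 adipocyte markers was above background in wild-type liver on any array, so no ratio is given for them, and in *Rap1*-/- liver *Adipoq* was above background on 3 of 4 arrays, *Plin1* on 2 and *Lep* on 0. The adipocyte sums ran from 217.9 to 488.1 in *Rap1*-/- liver and from 209.9 to 232.1 in wild-type liver. Of the 8 hepatocyte markers 1 passed, *Alb*, higher by 0.54 (adjusted p = 0.0485) with -0.53 on the dye swap, and their median ratio was 0.19, 0.29 and 0.10 in replicates 1 to 3 and -0.32 in the dye swap. Of the endothelial markers 2 of 5 were higher (*Kdr* and *Pecam1*), of the lymphocyte markers 1 of 3 (*Cd3e*) and of the tested cholangiocyte markers 1 of 2 (*Krt19*), while 0 of 5 stellate markers passed. On the dye swap, *Kdr*, *Pecam1* and *Cd3e* had ratios of -0.35, -0.09 and -0.22, and *Krt19* had 0.28. Of all tested probes, 20.8% were higher. The part of these cells in the replicate pattern was not tested. In whole liver, a change in the number of cells of a type and a change in RNA per cell cannot be told apart.

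**Figure D4:**
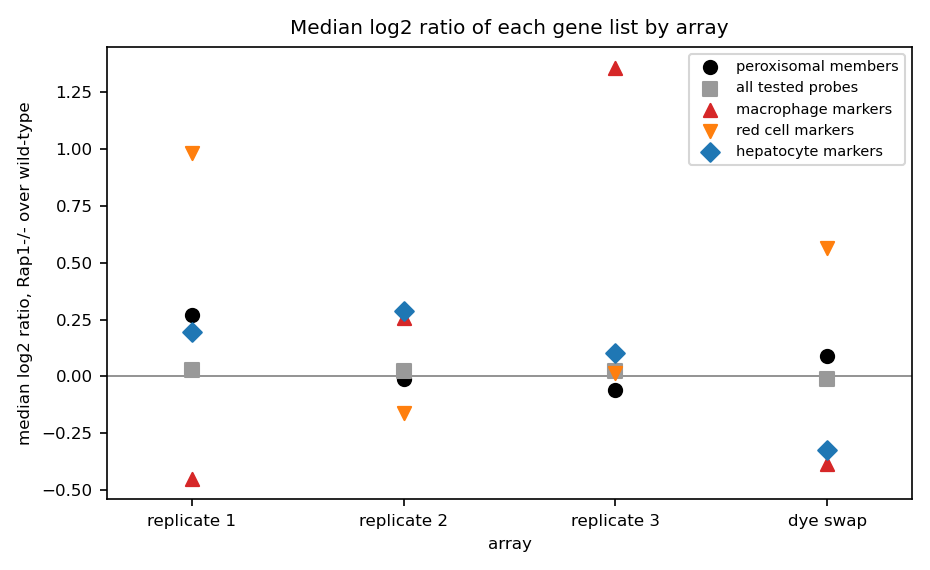
Median log2 ratio, *Rap1*-/- over wild-type (y axis), on each array (x axis) for the 32 peroxisomal genes, all 27513 tested probes, and the macrophage, red cell and hepatocyte markers. The peroxisomal median is 0.27 on replicate 1 and -0.06 on replicate 3, where the macrophage median is 1.36.

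Other peroxisomal genes were examined from a list of 51, of which 50 had a named probe (*Far1* had none) and 48 were tested. Of the 48, 13 were higher (27.1%) and 10 lower (20.8%), together 47.9%, against 34.5% of all tested probes. The count of 23 became 27 without the dye swap (52.7% of all probes) and 29, 0 and 10 without replicate 1, 2 or 3 (45.8%, 0.0254% and 9.94%). Replicate 1 was left out together with the dye swap averaged with it. It was 6 under the dye term (6.7%) and 0 when the dye swap counted as a separate replicate (0.302%). An unadjusted p under 0.05 was found for 11 genes without replicate 2 and for 13 with the dye swap as a separate replicate. The same held for 3904 and 5578 of all 27513 tested probes. By role, 10 of the 20 genes of oxidation, transport and conjugation were higher and 2 lower. Among those higher, *Idh1*, *Abcd4*, *Crat* and *Nudt12* had the opposite sign on the dye swap (-0.77, -0.31, -0.17 and -0.03). *Slc25a17*, which was lower, had 0.34 there. Of 11 further peroxins and division factors, 1 was higher and 3 lower, and of 7 genes of amino acid, glyoxylate, purine and polyamine breakdown, 1 was higher and 3 lower. Neither of the import proteases and neither of the tested ether lipid genes passed.

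Of the 23 called genes of that list, 12 (52.2%) had the opposite sign on the dye swap, as did 63.8% of the 9488 probes called. The same sign on all 4 arrays was kept by 10, and 6 of them are given here. Of all tested probes, 12.1% were called and kept 1 sign on all 4 arrays. *Slc27a2*, an acyl-CoA synthetase for very long chains, had ratios of 1.76, 0.99, 1.19 and 0.03 on the dye swap (log2 fold change 1.03, SE 0.10, adjusted p = 0.0329). *Hao2*, a hydroxyacid oxidase, had 0.94, 0.90, 0.42 and 1.24 (0.80, SE 0.15, adjusted p = 0.0414), and it kept its call with the dye term (0.998, adjusted p = 0.0472). Both were highest on replicate 1 among the arrays with *Rap1*-/- liver in Cy5. *Baat*, which conjugates bile acids, had a log2 fold change of 0.48 (0.25 on the dye swap), *Ide*, the insulin-degrading enzyme, 0.49 (0.09) and *Acot4*, a thioesterase, 0.34 (0.20). *Pmvk*, phosphomevalonate kinase, was lower, with -0.64, -0.46, -0.46 and -0.26 (-0.46, SE 0.08, adjusted p = 0.0403).

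Among the regulators, *Ppara*, which encodes PPARα, gave 0.99, 0.94 and 0.90 in replicates 1 to 3, with 0.15 for the dye swap. Its log2 fold change was 0.80 (SE 0.11, adjusted p = 0.0402), and 0.54 with the dye term (adjusted p = 0.054). Its partner *Rxra* (0.06, adjusted p = 0.611) and the coactivator *Ppargc1a* (0.13, adjusted p = 0.335) did not pass. *Ppara* was read from the brightest of 3 probes, and *Rxra* and *Ppargc1a* from the brightest of 2 each. Values of the other probes are not given here.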

How the data were processed

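Liver RNA of both genotypes was hybridised together on 4 Agilent 2-colour arrays of 1 slide and 1 scan. The authors deposited the median spot intensities and local backgrounds of both dyes from Feature Extraction (10.7.3.1 by the headers, another version in the methods), their processed intensities, a log10 ratio of Cy5 to Cy3, and a value table of log2 ratios, which the processing notes credit to limma. In that deposited log2 table the dye-swapped column proved to be turned already (r = -0.892 with the scan's ratio), and its column medians lay between -0.0203 and 0.000826. Its background correction and its scaling are not stated in the labels or methods.

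In limma 3.58.1 (R 4.3.3), normexp with offset 50 corrected the median intensities, and loess, which gave control spots no weight, normalized each array by itself. Spots with an outlier flag were left out, which removed 5 probes, and no spot was saturated. Repeated spots were averaged, the dye swap was turned and averaged with replicate 1, and the averaging leaves the difference between these 2 arrays out of the SE. Testing was limited to the 27513 probes (49.4%) for which, in either genotype, no array had fewer than 0.5 of the probe's spots well above background. In a single channel 50.1% to 56.4% of spots were well above background. Precision is limited by the number of arrays. The test was lmFit and eBayes over 3 pairs with Benjamini-Hochberg adjustment over all tested probes at an FDR under 0.15, as in the methods. Normalised intensities of single channels are those after loess and quantile normalization of mean intensities, and for a genotype above background on no array the fold is a bound, set by the dimmest probe that was well above background.

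Probes carry accessions, and 26056 (46.8%) were named through RefSeq of GRCm38.p6. The brightest probe on average stood for its gene, and 7 of the 32 genes had 2 probes. Values on every array are given for genes that passed or had the same sign on all 4 arrays, and of the further peroxisomal genes the 8 with the smallest p that met both conditions were to be named, of which 2 are not reported here. Array values of the remaining genes are shown for a few chosen after their values were seen. The genes, the lists and this rule were chosen with earlier results of these data known. The methods give the mice as females of another age than the labels, and the labels' age was used. No promoter was at hand for *Abcd2*, *Amacr*, *Pex19* and *Pex2*. *Hsd17b4*, on chromosome 18, was left out of the promoter search, whereas the set of all promoters was not limited by chromosome. Alternatives changed the arrays, the dye term, the background correction, the signals, the normalization, the filter and the probe of a gene.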

Additional observations from a re-analysis of the deposited data

Results flagged for a closer look

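In 11 of the 32 peroxisomal genes (34.4%), the 3 arrays with *Rap1*-/- liver in Cy5 all had 1 sign and the dye-swapped array had the other, as in 43.9% of all tested probes. The difference between the 2 dye orientations was not tested. On the dye swap, the log2 ratio was -0.64 for *Pex5*, -0.48 for *Acox3*, -0.45 for *Cat*, -0.26 for *Ehhadh* and -0.0635 for *Pex10*, genes that were positive on the other 3 arrays. It was 0.31 for *Pex13*, 0.22 for *Pex7*, 0.22 for *Pex11g*, 0.18 for *Pex2*, 0.17 for *Abcd2* and 0.0403 for *Phyh*, genes that were negative on the other 3. Of the 11 genes, 6 had passed the test over 3 pairs.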

How the results depend on the processing

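The 13 calls (10 higher, 3 lower) were within 1.5 times of that count under another normexp offset (12), the processed intensities (11), the authors' value table (16), median centring (15), both other filters (13 each) and the mean over all probes of a gene (13). Of all probes, 9557 were called with the other offset, 9791 with the processed intensities, 10022 with the value table and 6472 with median centring, against 9488. Without a filter on dim probes 9175 were called, and 8308 among probes above background in both genotypes. The peroxisomal calls lost under these settings were *Acaa1a* and *Acox2* with the processed intensities, *Acaa1a* with the other offset and with the value table, and *Pex2* with median centring. Without the dye-swapped array 12 genes were higher and 7 lower, and 14496 of all probes were called in place of 9488. When the dye swap counted as a separate replicate, 0 peroxisomal genes were called (0 higher, 0 lower), 0 of the further peroxisomal genes and 83 of all probes. With the dye term, 4 were called (4 higher, 0 lower), 6 of the further genes and 1844 of all probes. The value table gave 7 lower. An FDR under 0.05 left 4. Median centring called 14 of the further genes in place of 23, and moved the median of the 32 genes to 0.18 and that of all probes to 0.17, so the 32 genes moved with all probes. It made 87.7% of all calls higher, against 60.3% with loess, 49.3% with the processed intensities and 45.3% with the value table. Leaving out 1 replicate in turn gave 0 to 21 calls (0 to 9 higher, 0 to 12 lower), 0 to 29 of the further genes, 7 to 12596 of all probes, and a median from -0.03 to 0.05. With 2 pairs, 1 residual degree of freedom remained, and the setting without replicate 1 also lacked the dye swap. None of the 13 called genes turned its direction under these settings, each of which kept most of the arrays with *Rap1*-/- liver in Cy5. Of the 13, 6 had the opposite sign on the dye swap itself. Among those of the 32 genes that were not called, the dye term turned *Pex13* (from -0.20 to 0.01), *Crot* (from -0.17 to 0.07) and *Pecr* (from -0.0024 to 0.03).

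The main test is paired, since each ratio sets the genotypes against each other on 1 array. No paired analysis was possible because of this other than the main test, and the replicate number could not be added as a block. The slide could not serve as a block, since all arrays lay on 1 slide. The cause of the differences between settings was not tested.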
